A study of Arabis alpina with 9 samples.

Results

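Ferritins store iron inside plastids, and vacuolar carriers such as VIT1 move it out of the cytosol. BRUTUS (BTS) is a ubiquitin ligase that in Arabidopsis thaliana holds back the response to iron shortage, although its own transcript is raised by that shortage. Copper, delivered by the chaperone CCS, is needed by the superoxide dismutase CSD1, and in Arabidopsis both transcripts are lowered by a microRNA when copper is scarce. The 6 genes followed here are the Arabis alpina counterparts of FER1 (AT5G01600), FER3 (AT3G56090), VIT1 (AT2G01770), BTS (AT3G18290), CSD1 (AT1G08830) and CCS (AT1G12520). They were selected on the fold change and adjusted p between the eop089 mutant and its control, which put them into the authors' deposited lists, where 1487 gene IDs stand and 1079 of them carry an Arabidopsis code. The count table holds 34220 gene entries, and each of the 6 genes has a single entry in it.

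Arabis alpina, a perennial crucifer, is kin to Arabidopsis, and the series concerns how its TFL1 gene takes part in flowering. All 9 libraries came from eop089 mutant plants (accession Pajares) kept in long days, namely leaves (the fifth and sixth) at 5 weeks, dissected shoot apices at 5 weeks and dissected shoot apices at 3 weeks, with 3 libraries each. The lists set these mutant samples against control plants whose libraries were not analysed here. The labels name the mutant by its line only, and nothing in them says that replicates came from separate plants, so p-values reflect only how far these libraries differ, and that may be technical variation.

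Each library held between 11859813 and 13382460 reads in genes. Among 9 listed tissue markers, the photosynthesis gene CA1 averaged 8681 CPM in leaves, against 0.549 CPM in 5-week and 16.9 CPM in 3-week apices. LHCB2.1, a light-harvesting gene, averaged 7695, 294 and 231 CPM in the same groups, with overlapping apex ages. The epidermal gene PDF1 averaged 15.6, 714 and 1303 CPM and the stomatal lineage gene TMM 3.64, 9.39 and 17.4 CPM. The guard cell gene KAT1, at 3.21, 3.75 and 2.72 CPM, overlapped among all groups. CPM stands for counts per 1e6 after TMM scaling, which corrects library size for composition. The summed level of the 9 markers lay between 16531 and 17109 CPM in leaves, between 1063 and 1139 CPM in 5-week apices and between 1609 and 1750 CPM in 3-week apices. CA1 and LHCB2.1 made up most of the leaf sum, and PDF1 and LHCB2.1 most of the apex sums. The sum thus stands for no single tissue. The meristem genes STM and WUS were looked up in the deposited lists too, where neither stood, and their levels were not examined. In bulk tissue, fewer cells of a type and less RNA per cell cannot be told apart.

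In the mutant leaf the ferritin and copper dismutase genes were listed higher and BTS lower. The authors' deposited table gave FER1 (Aa_G53890) 6.85-fold the control level (adjusted p of 1.87e-41) and FER3 (Aa_G287200) 6.78-fold (adjusted p of 3.08e-36). They had the smallest and second smallest adjusted p of the 397 genes listed higher in the leaf, with ranks of 40 and 41 by fold. For CCS (Aa_G10780) the authors' deposited table gave 3.08-fold and for CSD1 (Aa_G80690) 2.89-fold, ranked 31 and 30 by adjusted p. In the authors' deposited table BTS (Aa_G82120) reached 0.203 of the control level (adjusted p of 3.91e-29), rank 18 by adjusted p of 801 genes listed lower. These values chose the genes and are given as a description.

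At the apex 2 of the 6 genes were listed, both higher. At 3 weeks the authors' deposited table gave FER1 2.33-fold the control level (adjusted p of 1.2e-17), rank 58 of 242 by adjusted p. At 5 weeks it gave VIT1 (Aa_G243980) 2.04-fold (adjusted p of 0.00125), rank 39 of 66 in the authors' deposited table. With the lists starting at 2-fold, VIT1 lay just inside that limit, and no gene just outside it is listed. Median log2 fold changes of the lists with genes higher were 1.43 for leaves, 1.55 for 5-week apices and 1.40 for 3-week apices, over genes with a finite fold in the authors' deposited tables. Listed as higher were 1.73%, 0.288% and 1.06% of 22931 genes with at least 10 counts or a listing. Listed as lower in the leaf were 3.49%.

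**Figure D1:**
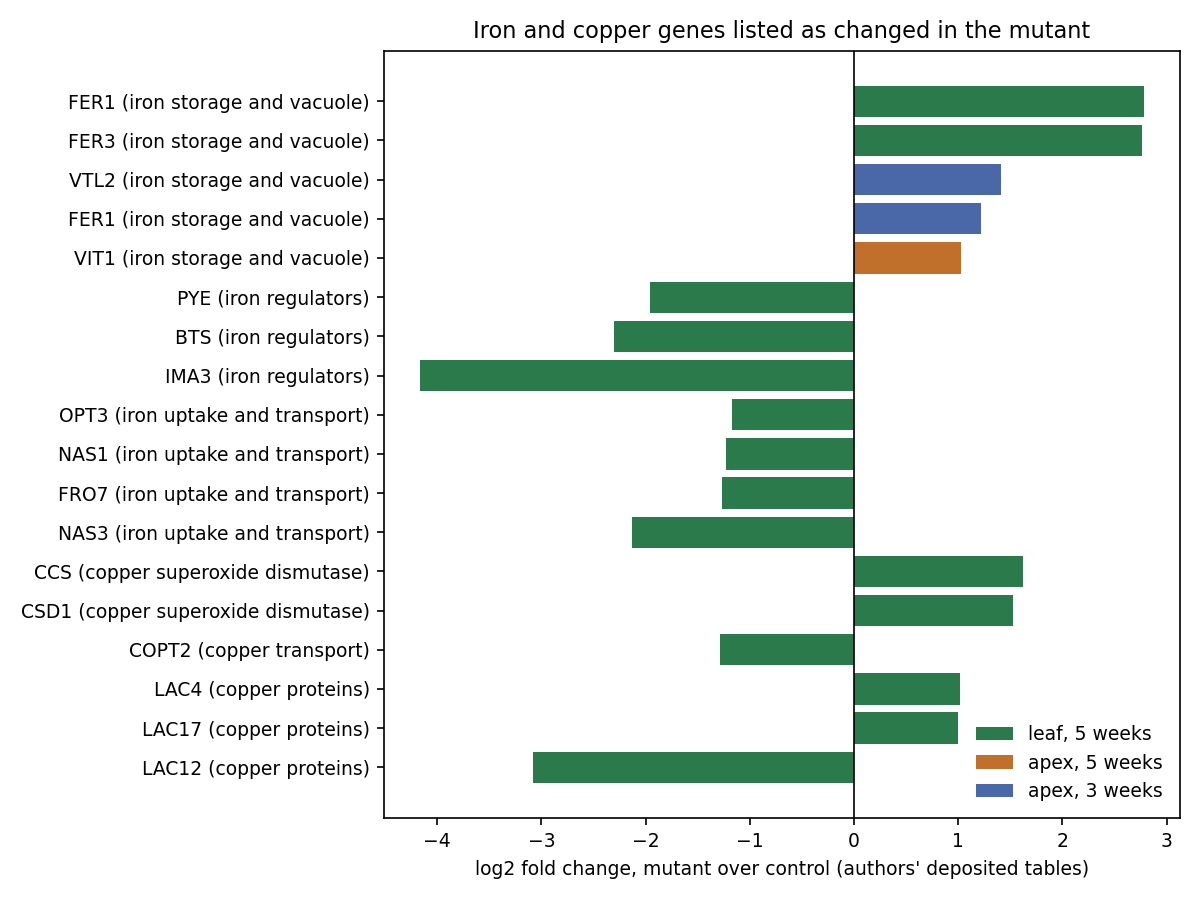
Log2 fold change of mutant over control (x axis) in the authors' deposited tables, 1 bar for each listed iron or copper gene and setting, coloured by tissue and age. Storage and superoxide dismutase genes lie above 0, whereas listed iron regulator, iron transport and copper transport genes lie below it.

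Beyond the 6 genes, 11 more of the 102 Arabidopsis genes in the iron and copper lists were found in the deposited tables. The lists were drawn up from textbook knowledge, but with earlier results of these data known. Genes of iron regulation and movement were listed lower in the leaf without exception among those listed. Among 20 iron regulators 3 were listed, all lower (15%, beside 3.49% of all genes), and BTS among them is a chosen gene. Besides BTS the authors' deposited table named PYE, a transcription factor gene of the iron shortage response (0.256 of the control), and IMA3, encoding a peptide that promotes iron uptake (0.0561). The mutant mean of IMA3 there was only 3.36 normalised counts.

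Among 32 iron uptake and transport genes 4 were listed, again all lower in the leaf (12.5%, beside 3.49% of all genes). The authors' deposited table put the nicotianamine synthase genes NAS3 and NAS1, whose product chelates iron and copper, at 0.229 and 0.427 of the control level. OPT3, which loads iron into the phloem, was at 0.444 and the chloroplast ferric reductase gene FRO7 at 0.413 by the authors' deposited table. Of 13 genes for iron storage and vacuolar iron carriers, FER1 and FER3 were listed higher in leaves (15.4%, beside 1.73% of all genes). VIT1 was listed higher in 5-week apices (7.69%, beside 0.288%) and FER1 and VTL2 in 3-week apices (15.4%, beside 1.06%). FER1, FER3 and VIT1 were chosen because the lists held them, so only VTL2 adds to these shares beyond that choice. VTL2, a relative of VIT1, was 2.66-fold the control level in 3-week apices by the authors' deposited table.

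On the copper side the directions were mixed. CSD1 and CCS were the listed genes among 8 for superoxide dismutases and their chaperone, both higher (25%, beside 1.73% of all genes). Both are chosen genes, which fixed this share. Of 17 copper transport genes only COPT2, a plasma membrane copper importer gene, was listed (0.409 of the control level, per the authors' deposited table). That single gene is 5.88% of its list, beside 3.49% of all genes listed lower. Of 12 genes for other copper proteins or enzymes, the laccase genes LAC4 and LAC17, which act in lignin formation, reached 2.03-fold and 2.0-fold, and LAC12 was at 0.118, by the authors' deposited table. These laccase genes make 16.7% of their list higher and 8.33% lower. In all, 6 of 102 genes (5.88%, beside 1.73% of all genes) were listed higher in the leaf and 9 (8.82%, beside 3.49%) lower. Both counts include chosen genes. These shares rest on Arabidopsis genes and the background shares on Arabis entries, and genes outside the tables have no Arabidopsis code, so the shares are not like for like.

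Markers of other tissues were listed in the leaf as well. By the authors' deposited table, the epidermal gene PDF1, the stomatal lineage gene TMM and the cyclin gene CYCB1;3 were 54.37-fold, 6.33-fold and 2.12-fold the control, and the guard cell gene KAT1 was at 0.378. LAC4 and LAC17 also serve as xylem markers, so that 6 of 19 fixed markers were listed in the leaf, while CA1 and the light-harvesting gene LHCB2.1 were not. PDF1 was at 4.64, 2.87 and 39.2 CPM in leaf replicates 1, 2 and 3. At the apex 3 marker listings stood beside those of FER1, VTL2 and VIT1. In 3-week apices the authors' deposited table gave CA1 2.44-fold the control level. By the authors' deposited table for 5-week apices, the phloem sucrose carrier gene SUC2 was 2.22-fold and LHCB2.1 0.492 times its control level. The part of these markers in the iron and copper results was not tested.

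The libraries show how the 6 genes were set in the mutant itself. FER1, the ferritin gene best known in leaves, had 600, 582 and 685 CPM in 5-week leaves, against 83.9, 79.3 and 97.2 CPM in 5-week apices and 48.1, 59.9 and 52.7 CPM in 3-week apices. The groups did not overlap, and the leaf stood far above both apex ages. Leaf over 5-week apex was a log2 fold change of 2.84 (SE 0.10) and leaf over 3-week apex one of 3.54 (SE 0.10), both given as a description because the same leaf libraries had listed the gene. By total counts alone they were 2.01 and 2.81, and the median of all genes was then -0.93 and -0.76, against -0.10 and -0.03 with TMM scaling. Every fitted difference between leaf and apex carries this shift in the median.

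FER3 had 145, 141 and 166 CPM in 5-week leaves, against 129, 85.3 and 106 CPM in 5-week apices and 71.0, 81.4 and 77.3 CPM in 3-week apices. The leaf was the highest group without overlap, by a log2 fold change of 0.50 (SE 0.11) over the 5-week apex. This direction depended on scaling. By total counts alone it was -0.33, and FER3 lay 0.59 above the median of all genes under both. The ferritin genes, with nearly equal folds over the control in leaves, thus had unlike levels across the mutant's organs.

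A ratio of read counts within a library needs no scaling. FER1 to FER3 was 4.13 in each of the 3 leaf libraries, against 0.649, 0.930 and 0.916 in 5-week apices and 0.678, 0.736 and 0.682 in 3-week apices. Being uncorrected for transcript length, the ratio can be compared between groups but does not say which gene is more abundant. The leaf did not overlap the apices, whereas the apex ages overlapped. Reads that fit ferritin copies equally well could be split by the counting, which was not tested.

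CSD1, the cytosolic dismutase gene, and its chaperone gene CCS had similar folds over the control in leaves but differed between organs. CSD1 had 232, 228 and 268 CPM in 5-week leaves, against 418, 365 and 394 CPM in 5-week apices and 392, 397 and 394 CPM in 3-week apices. CCS had 91.9, 87.5 and 94.8 CPM in 5-week leaves, against 20.0, 20.6 and 22.3 CPM in 5-week apices and 28.3, 26.9 and 30.3 CPM in 3-week apices. Leaves were thus the lowest group for CSD1 and the highest for CCS, with no overlap. Leaf over 5-week apex was a log2 fold change of -0.69 (SE 0.08) for CSD1 and 2.12 (SE 0.07) for CCS, and by total counts -1.52 and 1.29. The CSD1 to CCS ratio of counts was 2.65 ± 0.156 in leaves, against 18.8 ± 1.82 in 5-week and 13.9 ± 0.868 in 3-week apices (mean ± SD, n = 3 each).

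**Figure D2:**
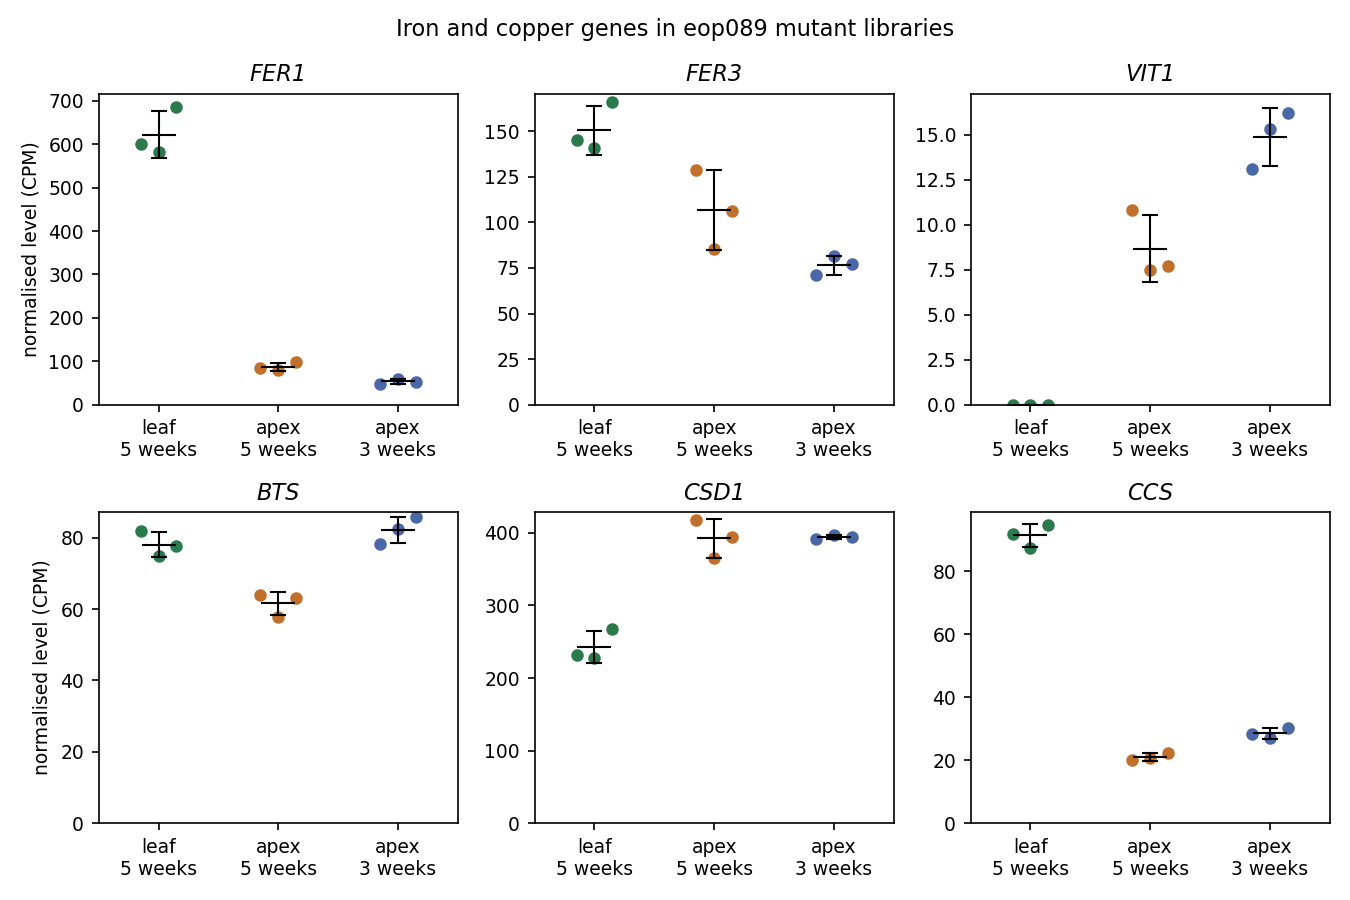
Normalised level (CPM, y axis from 0) of the 6 genes in each mutant library, by tissue and age, with points for libraries and bars for the mean ± SD of 3 libraries. FER1 and CCS stand highest in leaves, CSD1 lowest, and VIT1 is at 0 in all 3 leaf libraries.

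**Figure D3:**
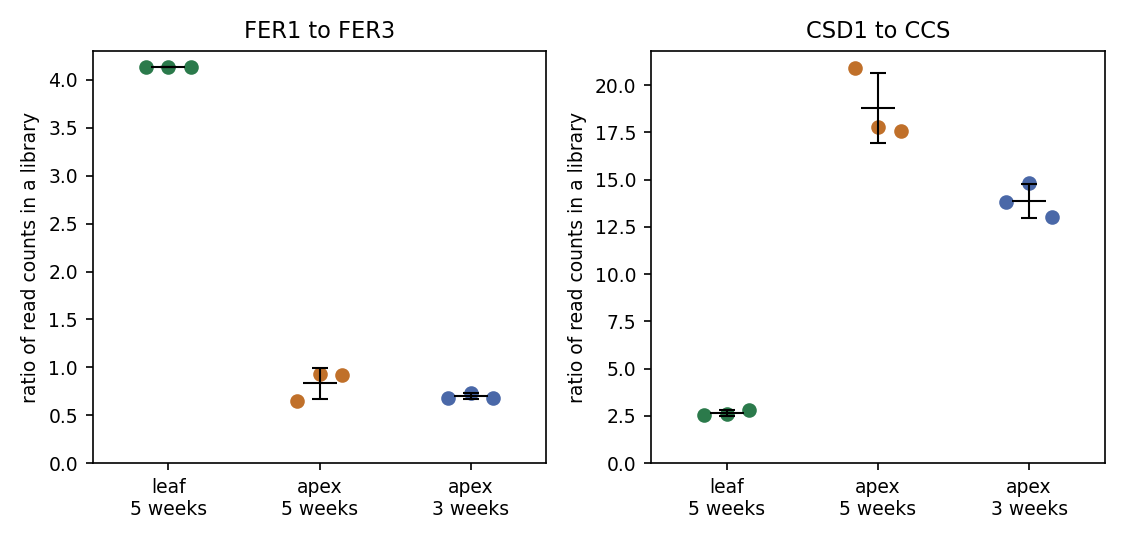
Ratio of read counts within a library (y axis from 0) for FER1 to FER3 and for CSD1 to CCS, by tissue and age, with points for libraries and bars for the mean ± SD of 3 libraries. The leaf is set apart from both apex ages in each ratio, upwards for the ferritins and downwards for CSD1 to CCS.

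BTS varied little among the mutant groups. It had 81.9, 74.8 and 77.6 CPM in 5-week leaves, against 63.9, 57.9 and 63.0 CPM in 5-week apices and 78.3, 82.4 and 85.7 CPM in 3-week apices. Leaves and 3-week apices overlapped, and 5-week apices were the lowest. The log2 fold change of leaf over 5-week apex was 0.34 (SE 0.07), but -0.49 by total counts, which is 0.44 above the median of all genes either way. Leaf over 3-week apex was -0.07 (SE 0.07) and, by total counts, -0.80, where the median of all genes was -0.76. The mutant leaf level of BTS, 0.203 of the control by the authors' deposited table, thus lay within the range of the mutant apices under TMM scaling, and BTS was not listed for either apex age.

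VIT1 was an apex gene in these libraries. It had 0 counts in each of the 3 leaf libraries, against 10.8, 7.47 and 7.73 CPM in 5-week apices and 13.1, 15.3 and 16.2 CPM in 3-week apices. Setting a count of 0 at 3 counts in each library, the leaf was at least 45.3-fold lower than the 3-week apex and at least 26.4-fold lower than the 5-week apex (at least 75-fold and 47-fold by total counts). The first of these comparisons shares no library with its listing. Yet VIT1 was chosen through an apex list, which needs counts at the apex, so this order is a description. In that comparison 38.3% of all tested genes were called lower in leaves. Bounds and intervals cover counting error only. VTL2, by contrast, had 29.2, 23.7 and 32.5 CPM in 5-week leaves, against 2.64, 1.60 and 1.98 CPM in 5-week apices. On the log2 scale that is a difference of 3.77 (SE 0.19, adjusted p = 1.10e-11 by edgeR), where 37.1% of all genes passed as higher. That comparison too shares no library with the gene's listing. By total counts the difference was 2.94.

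Between the apex ages, FER3, BTS, CSD1 and CCS could be tested without the libraries of their listing, which was in leaves alone. The spread in the model still came from all 9 libraries, and absence from the apex lists rests on these apex libraries. With only the 2 apex groups in the model, edgeR adjusted p was 0.00564 for FER3 and 2.76e-04 for BTS. It was 9.15e-04 for CCS and 0.907 for CSD1. FER3 was higher at 5 weeks than at 3 weeks, with 107 ± 22.0 against 76.5 ± 5.24 CPM (mean ± SD, n = 3 each) and a log2 difference of 0.48 (SE 0.11; adjusted p = 0.00348 by edgeR). BTS fell to 61.6 ± 3.21 CPM at 5 weeks, against 82.1 ± 3.66 CPM at 3 weeks (SD, n = 3 each) and a log2 difference of -0.42 (SE 0.07; adjusted p = 1.41e-04 by edgeR). CCS fell to 21.0 ± 1.20 CPM at 5 weeks, against 28.5 ± 1.69 CPM at 3 weeks (SD, n = 3 each) and a log2 difference of -0.44 (SE 0.08; adjusted p = 3.12e-04 by edgeR). CSD1 did not pass, with 392 ± 26.6 CPM at 5 weeks and 395 ± 2.57 CPM at 3 weeks (SD, n = 3 each) and a log2 difference of -0.01 (SE 0.08; adjusted p = 0.946 by edgeR).

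Between the apex ages 40.1% of all tested genes passed (at 5 weeks 19.1% were higher and 21% lower), so calls on 3 of these 4 genes say little by themselves. FER1 and VIT1 had been listed with these apex libraries and are given without a test. FER1 had a log2 fold change of 0.70 (SE 0.10) and VIT1 one of -0.78 (SE 0.16) at 5 over 3 weeks, and neither gene's groups overlapped. VTL2, also listed with these libraries, had 2.64, 1.60 and 1.98 CPM at 5 weeks against 8.02, 5.72 and 6.65 CPM at 3 weeks, a log2 fold change of -1.71 (SE 0.21).

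Of the 10 other iron and copper genes listed in leaves alone, 8 had enough counts to be tested between the apex ages. OPT3 fell, with 44.1, 48.4 and 44.7 CPM at 5 weeks against 56.5, 53.5 and 56.8 CPM at 3 weeks (log2 fold change -0.28, SE 0.08; edgeR adjusted p = 0.00951). By total counts alone OPT3 missed the threshold (edgeR adjusted p = 0.0951). LAC4 fell as well (log2 fold change -0.69, SE 0.20; edgeR adjusted p = 0.0136), and so did LAC17 (-0.80, SE 0.28; edgeR adjusted p = 0.0308). Both laccase calls were lost without 5-week apex replicate 2 (edgeR adjusted p = 0.0655 for LAC4 and 0.13 for LAC17) or without replicate 3 (0.0527 and 0.095). LAC17 also missed the threshold without any 3-week apex replicate (edgeR adjusted p from 0.0507 to 0.0818), by total counts (0.0501) and in DESeq2 (0.117).

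The other 5 tested genes, PYE, NAS3, NAS1, FRO7 and COPT2, did not pass between the apex ages. Their edgeR adjusted p-values lay between 0.0709 for NAS1 and 0.757 for FRO7. NAS1 had 0 counts in every 5-week apex library and 11, 0 and 0 counts at 3 weeks, so a single library carried its apex level. Without 3-week replicate 2 or 3, or without the filter on low counts, NAS1 did pass (edgeR adjusted p = 0.0381, 0.0384 and 0.0381). The median log2 fold change of the 12 tested iron and copper genes that were listed in leaves alone was -0.43, against 0.01 for all genes. Of these 12, 1 was called higher, 5 lower and 6 not called, where 40.1% of all genes were called. The median includes NAS1, NAS3 and COPT2, which had few counts at the apex. Without 3-week apex replicate 1 the log2 fold change of NAS1 was 0.00 and that of NAS3 0.34.

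Within the mutant, the iron transport genes listed lower in the leaf still stood higher in leaves than in 5-week apices. They were chosen through the leaf list, which needs counts in leaves, so this order is a description. Of all tested genes, 37.1% were called higher in leaves than in 5-week apices. NAS3 had 18.4, 21.5 and 18.3 CPM in 5-week leaves, against 0.129, 0.133 and 0 CPM in 5-week apices. FRO7 had 5.08, 3.82 and 3.68 CPM in 5-week leaves, against 0.0645, 0.133 and 0.396 CPM in 5-week apices. NAS1, at 3.20, 5.84 and 4.24 CPM in leaves, was at least 22.5-fold higher there than in 5-week apices (12.6-fold by total counts). OPT3 had 135, 163 and 139 CPM in 5-week leaves, about 3.18 times its level in 5-week apices (1.79 times by total counts).

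COPT2, the only listed copper transport gene, followed the same organ pattern, and PYE did not. The levels of the other copper transport genes were not examined. COPT2 had 26.6, 27.1 and 13.6 CPM in 5-week leaves, against 0.129, 0.467 and 0 CPM in 5-week apices. PYE had 14.7, 10.5 and 12.3 CPM in 5-week leaves, against 10.2, 10.9 and 10.5 CPM in 5-week apices and 13.7, 8.65 and 11.3 CPM in 3-week apices, so its groups overlapped. Its log2 fold change of leaf over 5-week apex was 0.24, and -0.59 by total counts. IMA3 had 8, 2 and 0 counts in leaves, 2, 0 and 0 in 5-week apices and 4, 4 and 4 in 3-week apices. LAC12 had 4, 6 and 0 counts in leaves and still fewer at the apex. Both have too few counts for an order of leaf and apex, which overlapped. The apex ages of IMA3 did not overlap (count ratio of 5 over 3 weeks 0.165, 95% interval 0.0179 to 0.739), and those of LAC12 did.

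**Figure D4:**
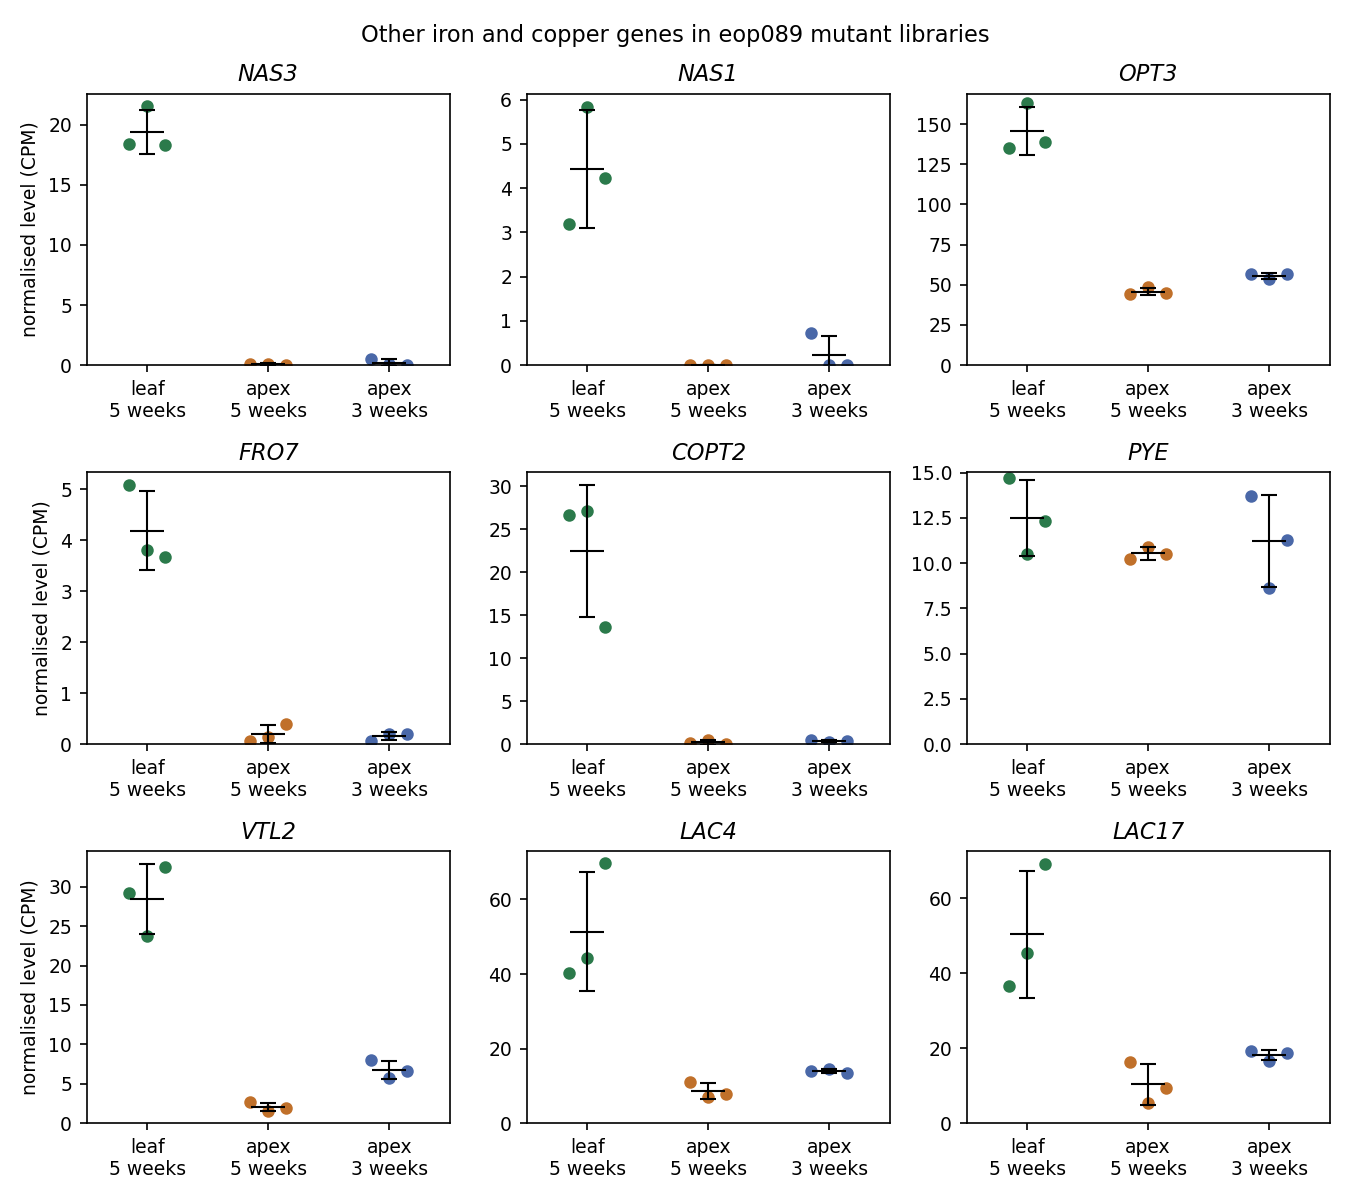
Normalised level (CPM, y axis from 0) of 9 further iron and copper genes in each mutant library, by tissue and age, with points for libraries and bars for the mean ± SD of 3 libraries. All but PYE stand higher in leaves than in either apex group, and PYE overlaps between them under TMM scaling.

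Leaf replicate 3 was the extreme library for many of these genes. It was the highest leaf library for all 6 iron and copper genes listed higher in leaves and for none of the 9 listed lower, being the lowest for 5 of those. The same share over all listed genes or all genes was not computed. Markers outside these pathways had this extreme too. PDF1, TMM and CYCB1;3, listed higher in leaves, were highest in leaf replicate 3, and KAT1, listed lower, was lowest there. Without it the leaf mean was 591 CPM for FER1, 143 for FER3, 230 for CSD1 and 89.7 for CCS, against 623, 151, 243 and 91.4 CPM with it. COPT2 averaged 26.9 CPM without it and 22.4 CPM with it, and LAC4 42.2 and 51.4 CPM.

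The markers listed at the apex varied among the apex libraries as well. At 3 weeks CA1 had 32.4, 4.90 and 13.6 CPM in replicates 1, 2 and 3. VTL2 had 8.02, 5.72 and 6.65 CPM there, which is the same order, and FER1 was lowest in replicate 1, where CA1 was highest. At 5 weeks SUC2 had 15.5, 8.67 and 9.12 CPM and LHCB2.1 had 136, 423 and 322 CPM. VIT1, highest in replicate 1 and lowest in replicate 2, had the order of SUC2 and the reverse of that of LHCB2.1.

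Among 713 named genes of the deposited tables with sufficient counts, those nearest to each of the 6 genes over the 9 libraries were sought. How many others came about as near was not counted. The likeness is Pearson's correlation of log2 CPM, in which the gap between organs weighs most. FER1 was nearest to AT3G57800 (r = 0.997), the sucrose-phosphate synthase gene ATSPS4F (0.989) and ERF106 (0.988). FER3 was nearest to the abscisic acid receptor gene PYL4 (0.936), and BTS to the expansin gene EXPA10 (0.966), DIN10 (0.958) and the floral repressor TEM1 (0.954). VIT1 was nearest to EXP3 (0.998), CSD1 to AT5G07030 (0.995), and CCS to AT1G33811 (0.998) and the chlorophyll b reductase gene NYC1 (0.997).

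Once each group's mean was removed, the correlations among the 6 genes changed, and 9 of the 15 pairs turned sign. VIT1 had 0 counts in every leaf library, so its leaf deviations carry no information. Its pairs with FER1, FER3 and BTS were among those that turned. Some turns involved values near 0, such as FER3 and CCS (0.71 over the libraries and -0.02 for deviations). FER1 and FER3 had r = 0.90 over the 9 libraries and 0.52 for deviations from the group means. CSD1 and CCS had r = -0.95 over the libraries and 0.23 for deviations. FER3 and CSD1 had r = -0.73 over the libraries and 0.84 for deviations, and FER3 and BTS -0.05 and 0.65. Among the 713 genes, the nearest by deviations were AT3G15450 for FER1 (r = 0.867), MBP1 for FER3 (0.957), CER1 for VIT1 (0.911), HPGT3 for BTS (0.967), ENDO3 for CSD1 (0.966) and EXLA2 for CCS (0.921). These correlations share libraries and scaling and are a description.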

How the data were processed

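Polyadenylated RNA was sequenced as single reads of 100 bases with a directional kit, per the labels' protocols. The submitters' processing notes name STAR, HTSeq 0.5.4p1, DESeq and DESeq2, and give no role or order. Genome build and annotation: not given in the sources used here. Whole-number read counts per gene were deposited by the authors. Reads outside genes (7.94% to 16.3% per library) or ambiguous (2.78% to 3.37%) stayed out of the library sizes. The 6 columns of control means belong to no sample here and were not used. Per the file headers, the lists give a fold (ratio of mutant to control mean), its log2, an adjusted p-value and a mean signal of normalized counts, all made by the authors.

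The 6 genes, the pathway and marker lists and the tests were chosen with earlier results of these data known. The test was that of edgeR 4.0.16 under R 4.3.3 (TMM, expression filter, quasi-likelihood F-test, 1 model of 3 groups, Benjamini-Hochberg over 20633 genes, threshold 0.05). It was also run on simulated data for pairs of groups, with the outcome not reported here. The SE was derived from the F statistic and the fold change. A p is printed only where the comparison shares no library with the gene's listing. Named genes are the 6, all listed pathway genes and the nearest named genes by correlation (up to 3 each, average log2 CPM of at least 2). Alternatives were RLE factors, total counts, no filter, DESeq2 1.42.0, limma 3.58.1 with voom, pairs of groups, a replicate block and leaving out each replicate. Sequences were not used here.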

Additional observations from a re-analysis of the deposited data

How the results depend on the processing

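The numbers of genes called stayed within 1.5 times under every alternative run, with 6256 to 8513 calls between the apex ages, 15689 to 16323 for leaf over 5-week apex and 14781 to 15223 for leaf over 3-week apex when single replicates were left out (all libraries 8265, 16316 and 15451). The share of calls that were higher moved to 66.2%, 22% and 22.8% by total counts. Under total counts BTS reversed to -0.49 and FER3 to -0.33 for leaf over 5-week apex, and CSD1 to 0.10 between the apex ages; leaving out single replicates, CSD1 lay between -0.06 and 0.04 (log2 fold changes), turning without 5-week apex replicate 2. Total counts use no composition factor, which moved the median of all genes by the same amount. With a fold of at least 4, 6 of the 17 listed pathway genes remained. With the replicate block the calls were 7681, 16114 and 15242, and no call on the 6 genes changed. Same-numbered libraries had correlations of deviations between -0.0771 and 0.00757, and libraries of different numbers between -0.0583 and 0.068. These values give no sign of pairing by number. Whether the numbers mark a shared harvest or batch was not tested. Counts limit IMA3, LAC12 and the apex levels of NAS1, NAS3, FRO7 and COPT2. The leaf means without leaf replicate 3 of genes other than the 6 were computed after the values were seen.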
